A study of Mus musculus with 47 samples.

Results

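Of 62815 genomic regions bound by Myc in at least 1 of 6 mouse liver tumours, 10503 (16.7%) carried a Myc peak in exactly 2 of the 6 tumours. These regions were found by merging the Myc peaks of the 6 tumours wherever they overlapped by at least 1 bp and counting, for each merged region, how many tumour lists had a peak in it. The other regions comprised 24397 with a peak in 1 list, 6108 in 3, 4406 in 4, 3749 in 5 and 13652 in all 6. The regions were thus chosen by peak presence in the tumour Myc lists, and Myc presence and Myc scores in these 6 lists are given below as descriptions with no test.

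Myc is a transcription factor that binds DNA as a dimer with Max, preferably at E-box motifs, and at high levels it spreads over most active promoters and many enhancers. H3K4me3 marks mainly promoters, H3K27ac marks active promoters and enhancers, and RNA polymerase II (RNAPII) marks transcribed genes and their start sites. Regions shared by a few tumours can thus be placed by the chromatin they lie in.

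The livers came from FVB mice, and each library had its own peak list. The Myc-off tumours carried tet-Myc and LAPtTA, and their tet-Myc had been silenced with doxycycline in the food for 16 h (3 lists for each of Myc, H3K4me3, H3K27ac and RNAPII). The Myc-on tumours carried both transgenes with tet-Myc expressed (6 lists for Myc, 4 for each of the others). LAPtTA drives the transgene in liver and was used from before birth, and the labels name a wild-type and a V394D form of tet-Myc without saying which form a tumour expressed. The file headers of the histone marks held the letters wt in the identifiers of all 4 Myc-on tumours. Control livers gave 4 lists for each antibody: liver 1 carried tet-Myc that was not expressed, liver 2 carried LAPtTA, and livers 3 and 4 were wild type. The material was tumour nodules or whole liver pieces, so a peak present in a fraction of the cells cannot be told apart from a weaker peak in all of them. The labels did not say whether lists of a group came from separate animals, and p-values below measure the spread between lists. No marker of cell identity could be read from peak lists without genes of their build.

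Myc lists of the 6 tumours differed in length, and so did the share of the regions that each tumour held. Tumours 1 to 6 had 19269, 21570, 25742, 38814, 41558 and 55763 Myc peaks. Tumour 6, with the longest list, had a peak in 9888 of the 10503 regions (94.1%), tumour 5 in 6060 (57.7%) and tumour 4 in 4424 (42.1%). Tumour 3 had a peak in 521 (4.96%), tumour 2 in 90 (0.857%) and tumour 1 in 23 (0.219%). Tumours 5 and 6 shared 5825 regions (55.5%) and tumours 4 and 6 shared 3844 (36.6%), so both pairs together held most of the regions. The third pair was tumours 3 and 4 with 370 regions (3.52%), although neither list was the longest. Tumours 4 and 5 shared 202, tumours 3 and 6 shared 121, tumours 2 and 6 shared 84, and tumours 3 and 5 shared 30. The remaining pairs held at most 14 regions each, and 3 pairs (1 and 3, 2 and 3, 2 and 5) held 0.

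With each list shortened by score to the length of the shortest, 19269 peaks, 2988 regions were in exactly 2 lists. Among these, tumours 5 and 6 shared 691 (23.1%), tumours 3 and 4 shared 686 (23.0%) and tumours 2 and 6 shared 396 (13.3%), while tumours 4 and 6 shared 150 (5.02%). Tumours 5 and 6 and tumours 3 and 4 were the leading pairs at equal length, and the pair of tumours 4 and 6 was not. With Myc peaks above the median score instead, tumours 4 and 6 were the largest pair, with 3029 of 6118 regions (49.5%). Tumours 5 and 6 then shared 2688 (43.9%) and tumours 3 and 4 shared 232 (3.79%). Few places were the same in full lists and lists of equal length. Both ways, 253 regions were in exactly 2 lists, which is 2.41% of the 10503 and 8.47% of the 2988. Of the 2988, 870 lay in regions that had a peak in 3 of the full lists, 1325 in 4, 472 in 5 and 68 in all 6. Of the 10503 regions, 1871 (17.8%) kept a peak in any shortened list. The lowest score in the lists of tumours 3 and 4 was 5.27, against 5.05 in those of tumours 1, 2 and 5 and 5.00 in that of tumour 6, and the part of this difference in the pairs was not tested.

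**Figure D1:**
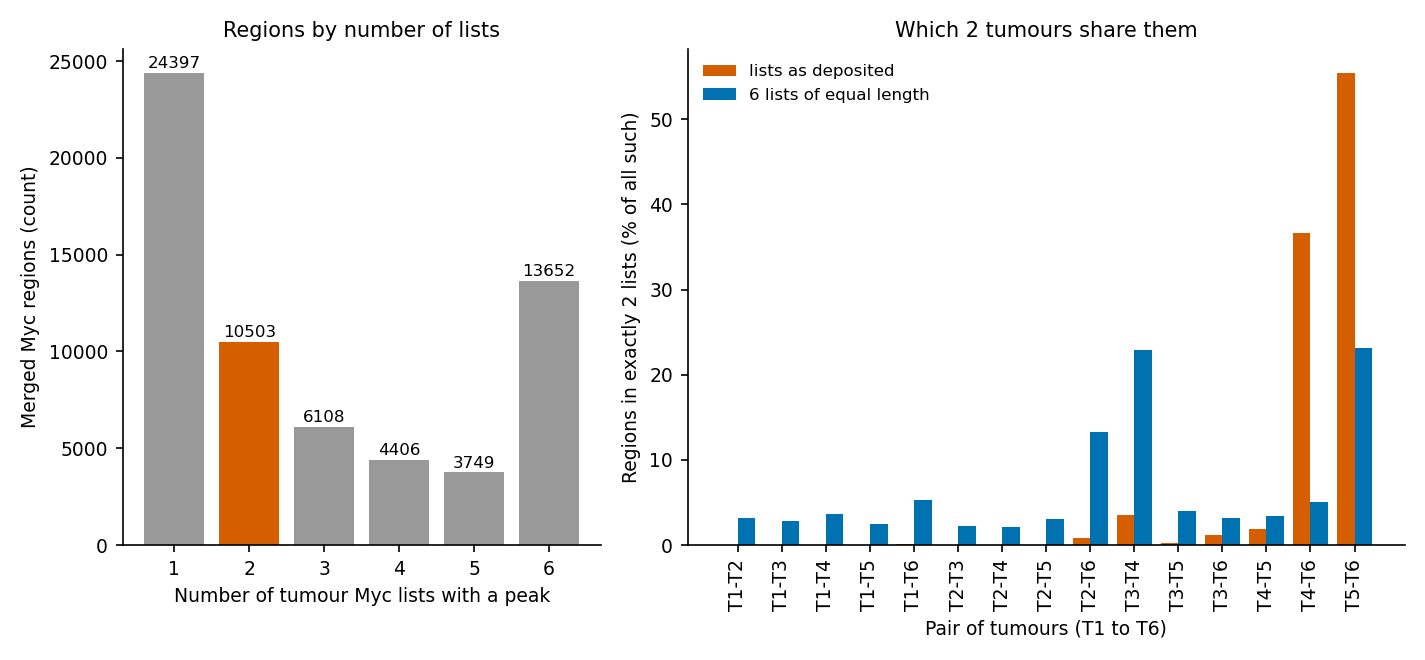
Left, number of merged Myc regions by the number of tumour lists (of 6) that have a peak there, with the 10503 regions in exactly 2 lists in orange. Right, percent of regions in exactly 2 lists that belong to each pair of tumours, for the lists as deposited (orange) and for 6 lists cut to 19269 peaks (blue): tumours 4 and 6 hold 36.6% of the first and 5.02% of the second, tumours 3 and 4 hold 3.52% and 23.0%.

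Peaks in regions shared by exactly 2 tumours were weak within their own lists. The authors' score is compared here as a percentile within a list, where 50 is the list's median peak. The median percentile was 9.54 in tumour 1, 21.0 in tumour 2, 17.9 in tumour 3, 18.9 in tumour 4, 28.7 in tumour 5 and 37.9 in tumour 6 (mean 22.3 ± 9.80, SD, n = 6 lists). All 6 medians lay under the middle of their list. In tumours 1 to 4, between 3.33% and 6.82% of the peaks in these regions scored above the list's median, against 20.5% in tumour 5 and 27.7% in tumour 6. On both sides of the limit, the median percentiles ran from 7.10 to 25.5 over the 6 tumours for regions in 1 list and from 11.4 to 51.7 for regions in 3 lists. For regions in all 6 lists they ran from 57.3 to 86.4.

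**Figure D2:**
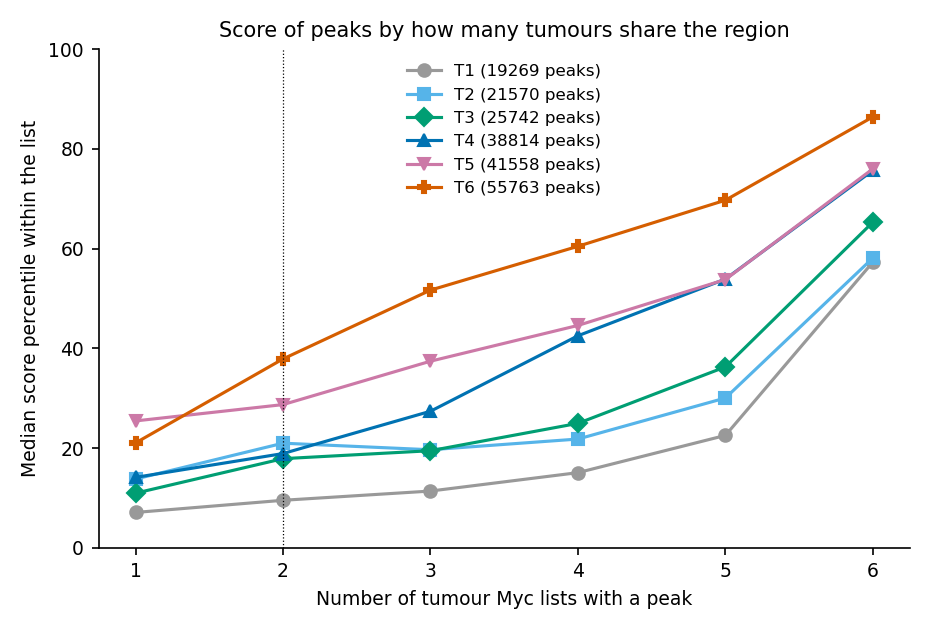
Median score percentile of Myc peaks within their own list (y axis) against the number of tumour lists that share the region (x axis), 1 line per tumour. At 2 lists (dotted line) the medians lie between 9.54 (tumour 1) and 37.9 (tumour 6), and at 6 lists between 57.3 (tumour 1) and 86.4 (tumour 6).

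The regions were short, and their distance from constant sites was like that of the other regions not bound in all 6 tumours. Their median length was 658 bp, against 447 bp for regions in 1 list, 851.5 bp for regions in 3 lists and 1937 bp for regions in all 6. The stretch covered in both tumours was 61.8% of the region at the median (quartiles 47.3% and 75.2%), and 19 regions overlapped by under 50 bp. A Myc peak of a further tumour lay within 1000 bp of 1503 regions (14.3%), and the median distance to one was 5914 bp. The nearest region bound in all 6 tumours lay at a median of 16888 bp, with 25.0% of the regions within 5000 bp of one. That distance was close to the medians of 16272 to 17821.5 bp for regions in 1, 3, 4 or 5 lists. On the numbered chromosomes and X, the regions made up between 15.4% (chromosome 4) and 18.5% (chromosome X) of all Myc regions. Per region bound in all 6 tumours there were 1.24 on chromosome X and between 0.652 (chromosome 7) and 0.904 (chromosome 6) on the others. For each region of tumours 5 and 6, there were 0.972 of tumours 4 and 6 on chromosome X and 0.420 on chromosome 13.

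By the chromatin of control liver, the regions carried H3K4me3 less often than regions bound in all 6 tumours, and the share with neither histone mark lay between those of regions in 1 and in 3 lists. A mark was counted where at least 2 control livers had a peak. In that classification 1812 regions (17.3%) overlapped H3K4me3, 3039 (28.9%) overlapped H3K27ac without H3K4me3 and 5652 (53.8%) overlapped neither. Neither mark was at 61.1% of the regions in 1 list and 43.8% of those in 3. With exactly 2 lists counted after a stricter Myc score limit or at equal list length, the share with neither mark was 41.6% or 40.9%. In regions bound in all 6 tumours the same classes held 66.4%, 17.6% and 16.0%. By the chromatin of Myc-on tumours the classes were 16.8%, 33.8% and 49.3% of the 10503, and by that of Myc-off tumours they were 25.8%, 41.5% and 32.7%. The largest shift between these tumour states was of 1661 regions (15.8%) that had neither mark in Myc-on tumours and H3K27ac alone in Myc-off tumours. That change of class applied to 3207 (13.1%) of the regions in 1 list and to 246 (1.80%) of those bound in all 6 tumours, so its share was near that of the regions in 1 list. A further 704 regions (6.70%) had H3K27ac alone in Myc-on tumours and H3K4me3 in Myc-off tumours. No peak of H3K4me3, H3K27ac or RNAPII in any library lay over 1798 regions (17.1%), against 201 (1.47%) of the regions in all 6 lists and 24.9% of those in 1 list.

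The pairs of tumours differed in class. Of the 370 regions of tumours 3 and 4, 52.7% lay in H3K4me3 of control liver and 6.22% in H3K27ac alone. Of the 5825 regions of tumours 5 and 6, 13.3% lay in H3K4me3 and 30.5% in H3K27ac alone, and of the 3844 regions of tumours 4 and 6, 19.1% and 30.1%. Regions of tumours 3 and 4 thus lay in H3K4me3 of control liver more often than those of both large pairs, and 41.1% of them had neither mark. They were also shorter, at a median of 493 bp, against 688 bp for tumours 5 and 6 and 641.5 bp for tumours 4 and 6. The 121 regions of tumours 3 and 6 and the 84 of tumours 2 and 6 were the least marked, with neither mark at 71.1% and 73.8% of them in control liver.

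In every mark library, fewer of these regions carried a peak than of the regions bound in all 6 tumours. The difference within a library was −50.7 ± 0.717 percentage points for H3K4me3, −41.6 ± 9.07 for H3K27ac and −51.4 ± 5.34 for RNAPII (SD, n = 11 libraries each). All 11 libraries of each antibody lay below 0 (two-sided exact sign-flip test, p = 0.000977, the smallest it can give, and adjusted p = 0.000977 over 6 tests). The test took Myc-off, Myc-on and control libraries together, all read on the same regions. Its p-value thus measures how alike the libraries were in this difference, and not the spread between regions. Against regions in a single list the regions were more often marked, by 4.92 ± 1.55 points for H3K4me3, 6.47 ± 2.18 for H3K27ac and 2.41 ± 1.81 for RNAPII, in 11 of 11 libraries of each (same test, adjusted p = 0.000977). With a stricter Myc score limit these differences were 13.0, 12.0 and 11.0 points. Within windows of 500 bp at the middle of each region, the differences from regions in all 6 lists were −50.5, −41.6 and −50.0 points, so they were of like size at equal length.

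H3K27ac lay over more of the regions in Myc-off tumours. The share of the 10503 regions with an H3K27ac peak was 48.7%, 61.7% and 59.0% in the 3 Myc-off tumours and 41.9%, 33.1%, 38.8% and 33.4% in the 4 Myc-on tumours. The lowest Myc-off value lay above the highest Myc-on value. The means were 56.5% ± 6.85 (SD, n = 3) and 36.8% ± 4.28 (SD, n = 4), a difference of 19.7 points (exact permutation p = 0.0286, the smallest this design allows, adjusted p = 0.0857 over 6 tests), which did not pass 0.05 after adjustment. H3K27ac peaks covered 168.31 to 213.894 Mb in the Myc-off lists and 103.613 to 141.023 Mb in the Myc-on lists. With all lists cut to 9696 peaks the shares were 38.8% ± 2.73 and 25.0% ± 1.39. The cut set the number of peaks and not the length they covered, and the part of covered length was not tested. The neighbouring kinds of region also had higher shares in Myc-off tumours. H3K27ac lay over 47.2% ± 5.90 of the regions in 1 list in Myc-off and 31.1% ± 3.27 in Myc-on tumours, and over 65.4% ± 6.75 and 48.3% ± 5.57 of the regions in 3 lists. Regions bound in all 6 tumours, of which most were covered in both states, carried H3K27ac in 89.5% ± 3.78 of cases in Myc-off and 89.3% ± 3.03 in Myc-on tumours. The gap between regions in exactly 2 and in all 6 lists was −33.0 ± 3.23 points in Myc-off tumours and −52.5 ± 1.50 in Myc-on tumours. This gap differed by 19.5 points (exact permutation p = 0.0286, adjusted p = 0.0571 over 6 tests), a comparison that was added after seeing the shares.

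H3K4me3 gave non-overlapping groups as well. The share of regions with an H3K4me3 peak was 21.9%, 24.2% and 25.0% in Myc-off tumours and 14.6%, 13.9%, 13.2% and 14.5% in Myc-on tumours. The difference was 9.66 points (exact permutation p = 0.0286, adjusted p = 0.0857). The Myc-off H3K4me3 lists were longer, with 18502 to 19876 peaks against 14502 to 14942 in Myc-on tumours, and at 12999 peaks each the shares were 15.5% ± 0.558 and 12.1% ± 0.511. This cut too set the number of peaks and not the length they covered. Regions bound in all 6 tumours had H3K4me3 in 74.9% ± 1.03 and 64.8% ± 0.865, so the gap differed by −0.50 points (exact permutation p = 0.514, adjusted p = 0.514). RNAPII lay over 13.8%, 19.1% and 28.6% of the regions in Myc-off tumours and over 15.7%, 15.5%, 21.3% and 8.92% in Myc-on tumours. These groups overlapped, with a difference of 5.16 points (exact permutation p = 0.371, adjusted p = 0.446). It was 1.09 points without Myc-off tumour 3, 8.53 without Myc-off tumour 1, 3.01 without Myc-on tumour 4 and 2.65 with a stricter Myc score limit.

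Between Myc-on tumours and control livers no share differed beyond the spread. H3K27ac covered 36.8% ± 4.28 of the regions in Myc-on tumours, against 21.7%, 25.5%, 38.9% and 39.2% in control livers 1 to 4 (difference 5.46 points, exact permutation p = 0.343, adjusted p = 0.446). The transgene-carrying control livers 1 and 2 held the low values. Their H3K27ac peaks covered 72.9 and 90.5 Mb, against 147.1 and 153.1 Mb in wild-type livers 3 and 4. The part of covered length in these values was not tested. Against wild-type livers alone the difference was −2.27 points. It was 2.26 points without control liver 1, 3.50 without control liver 2 and 12.8 with a stricter Myc score limit. H3K4me3 was at 14.1% ± 0.634 in Myc-on tumours and at 12.4%, 10.8%, 15.4% and 16.5% in control livers (exact permutation p = 0.857, adjusted p = 0.857). RNAPII was at 15.4% ± 5.05 in Myc-on tumours and at 30.5%, 21.1%, 19.6% and 21.5% in control livers, a difference of −7.80 points (exact permutation p = 0.0857, adjusted p = 0.171). In regions bound in all 6 tumours, H3K27ac averaged 89.3% ± 3.03 in Myc-on tumours and 68.4% ± 11.2 in control livers, a difference of 20.9 points. The H3K27ac gap between both kinds of region was −52.5 ± 1.50 points in Myc-on tumours and −37.1 ± 2.35 in control livers (exact permutation p = 0.0286, adjusted p = 0.0571). The RNAPII gap was −57.3 ± 4.36 and −48.5 ± 1.34 points (exact permutation p = 0.0286, adjusted p = 0.0571).

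**Figure D3:**
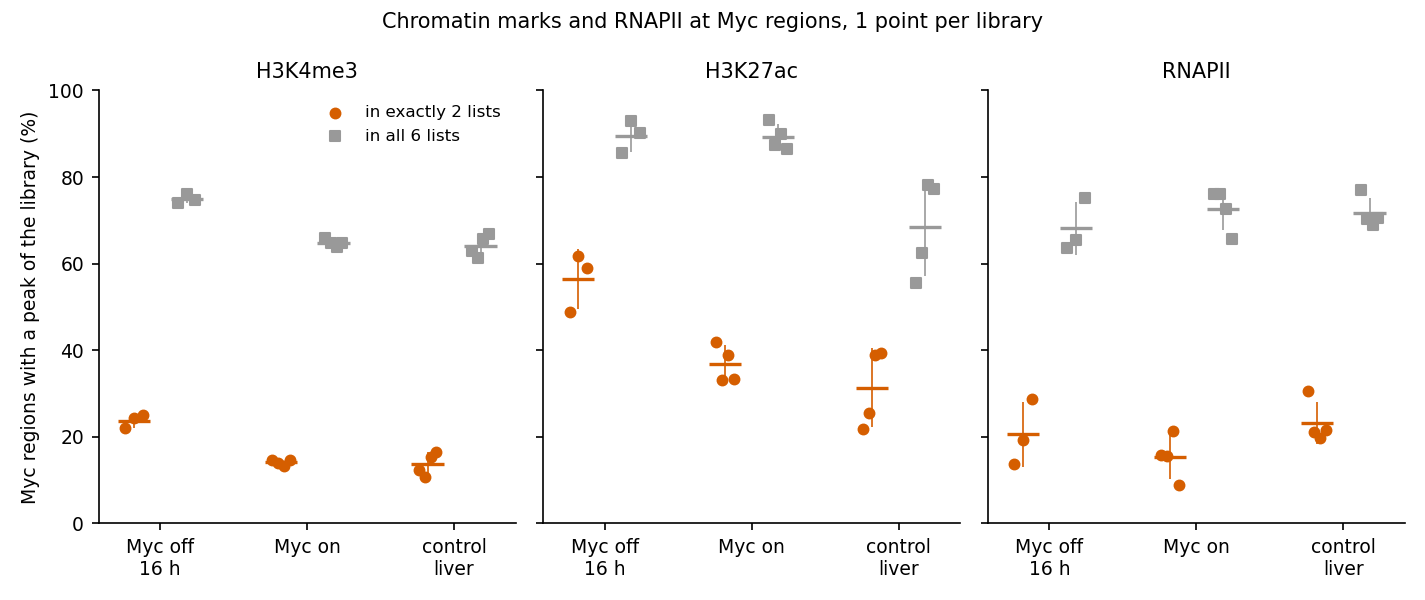
Percent of Myc regions with a peak of each library, 1 point per library, with horizontal bars at the group mean and vertical bars of 1 SD (n = 3 Myc-off, 4 Myc-on, 4 control livers). Regions in exactly 2 lists (orange) reach 48.7% to 61.7% for H3K27ac in Myc-off tumours and 33.1% to 41.9% in Myc-on tumours, while regions in all 6 lists (grey) average 89.5% and 89.3% there.

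Both large pairs differed in these shares. In regions of tumours 5 and 6, H3K27ac lay over 52.4%, 65.2% and 66.4% in the Myc-off tumours, over 39.7%, 31.6%, 34.2% and 29.4% in the Myc-on tumours, and over 22.7%, 26.0%, 39.1% and 39.5% in control livers. In regions of tumours 4 and 6 it lay over 48.2%, 62.2% and 52.3% in Myc-off tumours, over 48.6%, 38.7%, 47.3% and 41.9% in Myc-on tumours, and over 22.5%, 27.3%, 41.5% and 41.4% in control livers. In Myc-off tumours the regions of tumours 5 and 6 were the more often marked, in Myc-on tumours those of tumours 4 and 6 were, and in control livers both were close. The Myc-on lists of the marks were numbered 1 to 4, so none carried the number 5 or 6. What part this had in the difference between both pairs was not tested. Taken within each library as tumours 5 and 6 minus tumours 4 and 6, the difference was 7.10 ± 6.09 points (3.00 to 14.1) in Myc-off tumours, −10.4 ± 2.86 (−13.1 to −7.15) in Myc-on tumours and −1.36 ± 1.14 (−2.38 to 0.228) in control livers. It differed by 17.5 points between Myc-off and Myc-on tumours and by −9.06 points between Myc-on tumours and control livers (exact permutation p = 0.0286 each, adjusted p = 0.0343 over 6 tests, all of them added after seeing the data). For RNAPII the same quantity was −2.62 ± 1.90 points in Myc-off tumours, −10.5 ± 2.72 in Myc-on tumours and −6.60 ± 1.99 in control livers, and it differed by 7.92 and by −3.94 points (same test, adjusted p = 0.0343 each). For H3K4me3 it was −4.75 ± 2.74, −7.71 ± 0.971 and −4.14 ± 1.72 points, and it differed by 2.97 points (p = 0.0571, adjusted p = 0.0571, same exact test) and by −3.57 points (adjusted p = 0.0343). All 5 calls were at the smallest p that the test can give. Of these 5 calls, that of H3K27ac between Myc-on tumours and control livers passed 0.05 whichever library was left out (exact permutation). In these runs the p-values of the other tests were kept from all libraries. Leaving out a library does not test the choice of these comparisons after seeing the data. The H3K4me3 call was lost on leaving out any 1 Myc-on tumour, and the RNAPII call against control livers on leaving out any 1 library but control liver 3, at adjusted p-values of 0.0571 to 0.114 (same test). The calls between Myc-off and Myc-on tumours cannot be reached without 1 library, as the smallest p is then 0.0667 or 0.1.

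Regions of tumours 3 and 4 gave another picture. H3K4me3 lay over 61.1%, 55.4% and 62.7% of them in Myc-off tumours, over 54.1%, 52.7%, 63.8% and 65.1% in Myc-on tumours, and over 32.4%, 28.9%, 52.7% and 56.2% in control livers. Among Myc-on tumours, those numbered 3 and 4 had the higher values, as the Myc lists that chose the regions did. The same held for RNAPII, at 33.5% and 23.5% in tumours 3 and 4 and 16.5% and 15.1% in tumours 1 and 2, and not for H3K27ac, where tumour 1 at 21.9% lay above tumour 4 at 19.7%. In regions of tumours 4 and 6, tumour 4 had the highest H3K4me3 share of the 4 Myc-on tumours, at 17.5% against 15.6% to 17.3%, the third H3K27ac share, at 41.9%, and the lowest RNAPII share, at 13.5%. The labels give tumours of the 4 antibodies the same numbers without saying that a number is 1 tumour. The file headers of both histone marks held the same identifier for the same group and number in all 11 libraries. The match of these numbers to those of the Myc and RNAPII lists is not stated, so the values here are a description.

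**Figure D4:**
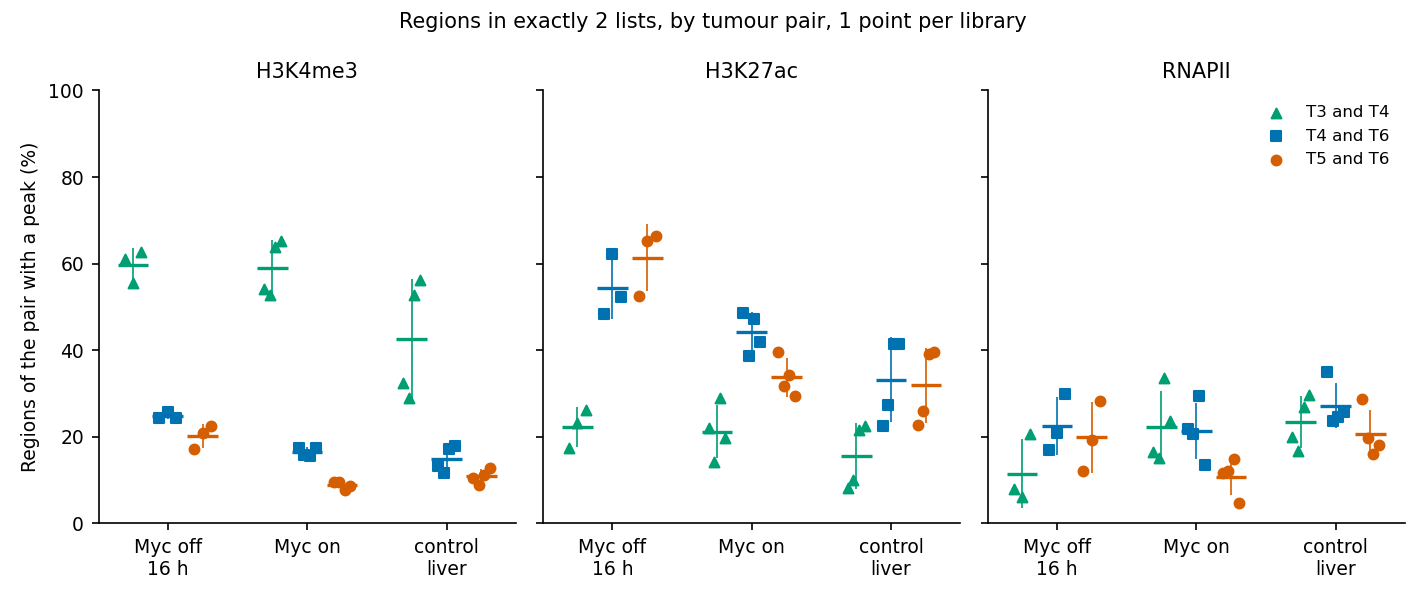
Percent of the regions of 3 tumour pairs with a peak of each library, 1 point per library, with bars at the mean and of 1 SD. Regions of tumours 3 and 4 (green, 370) lie above both large pairs for H3K4me3 and below them for H3K27ac, and for H3K27ac those of tumours 5 and 6 (orange, 5825) lie at 52.4% to 66.4% in Myc-off and 29.4% to 39.7% in Myc-on tumours.

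The regions were next set against changes tested across the genome for each mark. Merged peaks of an antibody were fitted with limma on the percent of their length covered in each library, and a Myc region counted where it overlapped a mark region whose difference passed 0.05 after Benjamini-Hochberg adjustment. Of the 10503 regions, 7220 overlapped a tested H3K27ac region. Of these, 1409 (19.5%) lay in H3K27ac regions covered more in Myc-off than in Myc-on tumours, against 14.6% of all Myc regions that overlapped a tested one, and 11 (0.152%) lay in regions covered less, against 0.326%. The share was 26.5% for tumours 5 and 6 and 9.97% for tumours 4 and 6. The 1409 lay in 893 H3K27ac regions of a median of 23722 bp, of which 394 (44.1%) also held a Myc region bound in all 6 tumours. Between Myc-on tumours and control livers, 924 (12.8%) lay in regions covered more, against 13.6% of all Myc regions, and 488 (6.76%) in regions covered less, against 5.27%. Against wild-type livers alone that split was 552 and 1028, so the larger part of it was then on the other side.

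For H3K4me3, 3049 of the regions overlapped a tested one. Of these, 1012 (33.2%) lay in regions covered more in Myc-off than in Myc-on tumours, against 29.1% of all Myc regions, and 8 (0.262%) in regions covered less, against 0.304%. By pair the share covered more was 43.8% for tumours 5 and 6, 27.8% for tumours 4 and 6 and 4.76% for tumours 3 and 4. Between Myc-on tumours and control livers, 233 (7.64%) lay in regions covered more, against 8.82%, and 328 (10.8%) in regions covered less, against 7.91%. With H3K4me3 peaks above the median score alone that split was 39 and 5. For RNAPII, 4494 of the regions overlapped a tested one. Of these, 252 (5.61%) lay in regions covered more in Myc-off than in Myc-on tumours, against 4.45%, and 37 (0.823%) in regions covered less, against 1.02%. Without Myc-off tumour 2 the sum of both was 75, and without Myc-off tumour 1 it was 479. Between Myc-on tumours and control livers, 144 (3.20%) lay in RNAPII regions covered more, against 3.93%, and 661 (14.7%) in regions covered less, against 11.3%. The shares stood within a few points of those of all Myc regions in each of these comparisons.

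Some regions lay in called regions of several marks. Of the 328 regions in H3K4me3 regions covered less in Myc-on tumours than in control livers, 171 (52.1%) also lay in RNAPII regions covered less, which was 25.9% of the 661. Over all Myc regions, 934 lay in both kinds, of 2032 in such H3K4me3 regions and 3886 in such RNAPII regions. Of the 488 in H3K27ac regions covered less, 180 (36.9%) also lay in such RNAPII regions, which was 27.2% of the 661, against 35.4% and 22.2% over all Myc regions. Between Myc-off and Myc-on tumours, 186 regions lay in H3K4me3 as well as in H3K27ac regions covered more, 18.4% of the 1012 and 13.2% of the 1409, against 15.0% and 16.6% over all Myc regions. These shares were near those of Myc regions in general.

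**Figure D5:**
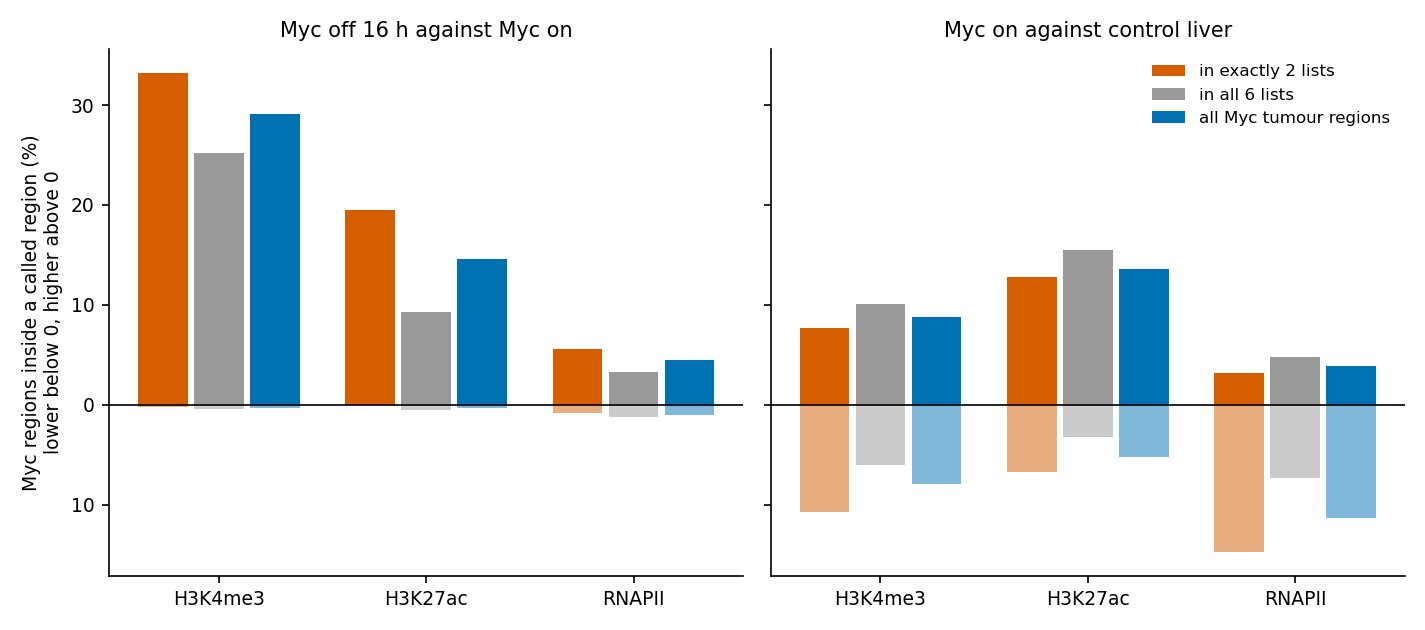
Percent of Myc regions that lie in a called region of each mark, covered more (above 0, solid) or less (below 0, pale), for regions in exactly 2 lists (orange), in all 6 lists (grey) and for all Myc tumour regions (blue), over those that overlap a tested region. For H3K27ac covered more in Myc-off than in Myc-on tumours, the values are 19.5%, 9.26% and 14.6%.

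The region on chromosome 12, 110896408 to 110897301 (mm9), shows H3K27ac that was higher with Myc off. Its 894 bp carried Myc in tumours 5 and 6 at score percentiles of 76.4 and 83.7. H3K27ac covered 100% of it in 3 of 3 Myc-off tumours and 0% in all 4 Myc-on tumours and all 4 control livers, and H3K4me3 had no peak there in any library. The H3K27ac region around it was covered by 89.5 ± 11.8 points more in Myc-off than in Myc-on tumours (limma standard error, adjusted p = 0.000657). On chromosome X, 103298971 to 103301235, both H3K27ac and RNAPII covered 100% of the region in all 3 Myc-off tumours and 0% in every Myc-on tumour and control liver. The surrounding RNAPII region differed by 81.5 ± 15.4 points (limma adjusted p = 0.004) and the H3K27ac region by 85.1 ± 12.0 points (limma adjusted p = 0.000788). A peak in each Myc-off and in no Myc-on tumour was found at 631 of the 10503 regions (6.01%) for H3K27ac and 120 (1.14%) for RNAPII. The shares were 3.87% and 1.30% of the regions in 1 list, and 0.520% and 0.403% of those in all 6. Among regions wholly covered in this way within a called region, those named had the highest Myc score percentiles.

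The reverse is a peak in each Myc-on and in no Myc-off tumour. It was found at 11 of the 10503 regions (0.105%) for H3K27ac, 38 (0.362%) for RNAPII and 1 for H3K4me3. For H3K27ac and RNAPII the shares were 0.0574% and 0.303% of the regions in 1 list, and 0.447% and 1.65% of those in all 6. For H3K27ac it was seen on chromosome 7, 87982499 to 87983078, a region of tumours 4 and 6 with percentiles of 15.4 and 38.7. H3K27ac covered all of it in 4 of 4 Myc-on tumours and none of it in Myc-off tumours or control livers (difference of the surrounding region −57.9 ± 16.5 points, limma adjusted p = 0.0335). That call was lost on leaving out any 1 of 4 libraries (Myc-on tumours 1 and 2, Myc-off tumours 2 and 3), with adjusted p-values of 0.0563 to 0.129. On chromosome 16, 20619538 to 20620529, a region of tumours 3 and 4, RNAPII covered 100% in 4 Myc-on tumours, 0% in 3 Myc-off tumours, and 0%, 0%, 100% and 100% in control livers 1 to 4. Its surrounding region differed by −69.0 ± 17.9 points between Myc-off and Myc-on tumours (limma adjusted p = 0.0307), and this call was lost on leaving out any 1 of 7 libraries (Myc-on tumours 1 to 3, each Myc-off tumour, and control liver 3, which shares the estimate of spread), with adjusted p-values up to 0.148. H3K4me3 on chromosome 5, 100853170 to 100853902, covered 100% in 4 Myc-on tumours and 0% in 3 Myc-off tumours, while H3K27ac and RNAPII covered it in all 3 of the Myc-off tumours. The H3K4me3 region there differed by −42.9 ± 9.11 points (limma adjusted p = 0.0056), a call that was lost with H3K4me3 peaks above the median score alone (limma adjusted p = 0.109).

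Some regions had a mark in every control liver and in no Myc-on tumour. They numbered 141 (1.34%) for H3K4me3, 247 (2.35%) for H3K27ac and 336 (3.20%) for RNAPII. In the same order, the shares were 0.803%, 1.68% and 2.60% of the regions in 1 list, and 0.850%, 0.168% and 1.43% of those in all 6. On chromosome 16, 38432564 to 38433605, H3K4me3 covered 100% in 3 Myc-off tumours, 0% in 4 Myc-on tumours and 100% in 4 control livers. The surrounding region was covered by 81.2 ± 8.64 points more in Myc-off than in Myc-on tumours (limma adjusted p = 2.79e-05) and differed by −77.2 ± 8.00 points between Myc-on tumours and control livers (limma adjusted p = 7.61e-05). H3K27ac there was at 100% in 3 Myc-off tumours, 0% in 4 Myc-on tumours and 100% in 3 of 4 control livers. Its surrounding region differed by 72.1 ± 15.2 points between Myc-off and Myc-on tumours (limma adjusted p = 0.00704) and by −40.4 ± 14.1 points between Myc-on tumours and control livers (limma adjusted p = 0.0655). Tumours 5 and 6 had bound the region at percentiles of 86.7 and 60.1. On chromosome 10, 77760382 to 77761209 had the same H3K4me3 values (−54.4 ± 12.8 points between Myc-on tumours and control livers, limma adjusted p = 0.0146) under H3K27ac that covered 100% in all 11 libraries. Between Myc-off and Myc-on tumours its H3K4me3 region differed by 34.4 ± 13.8 points, which did not pass (limma adjusted p = 0.0837). H3K27ac was lower in Myc-on tumours at chromosome 1, 176837581 to 176838625, and chromosome 14, 46038130 to 46038956, both of tumours 5 and 6. Both were covered to 0% in 4 Myc-on tumours and to 100% in 4 control livers, and each to 100% in 1 of 3 Myc-off tumours, with differences of the surrounding regions of −71.4 ± 13.2 and −85.7 ± 11.2 points (limma adjusted p = 0.0024 and 0.000306). RNAPII covered chromosome 3, 89705056 to 89706207, and chromosome 15, 96836641 to 96837703, to 0% in 4 Myc-on tumours and to 100% in 4 control livers (−77.7 ± 15.3 and −64.3 ± 13.7 points, limma adjusted p = 0.00136 and 0.00268). In Myc-off tumours RNAPII covered the chromosome 3 region in 1 of 3 and the chromosome 15 region in 2 of 3. Against wild-type livers alone the chromosome 3 call was lost (−66.6 points, limma adjusted p = 0.053).

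Other regions had a mark in every tumour and in no control liver. Counted on Myc-on tumours and control livers alone, such regions numbered 84 (0.800%) for H3K4me3, 426 (4.06%) for H3K27ac and 49 (0.467%) for RNAPII. In the same order, the shares were 0.693%, 3.20% and 0.529% of the regions in 1 list, and 1.14%, 7.87% and 2.29% of those in all 6. H3K4me3 covered chromosome 3, 90418585 to 90419340, and chromosome 4, 149049948 to 149050518, to 100% in all 3 Myc-off and all 4 Myc-on tumours and to 0% in 4 control livers. The differences between Myc-on tumours and control livers were 65.5 ± 9.23 points (limma adjusted p = 0.000569) and 52.6 ± 12.8 points (limma adjusted p = 0.0179). The chromosome 4 call was lost against wild-type livers alone (limma adjusted p = 0.0818). H3K27ac covered chromosome 10, 122202450 to 122203640, and chromosome 17, 30162580 to 30163930, to 100% in every tumour and to 0% in 4 control livers (63.5 ± 12.7 and 44.5 ± 8.77 points, limma adjusted p = 0.00376 and 0.00354). Neither call held when H3K27ac peaks were limited to those above the median score, at 0 and 6.43 points. RNAPII covered chromosome 5, 90929452 to 90930251, and chromosome 3, 115828707 to 115830432, to 100% in every tumour and to 0% in 4 control livers (74.5 ± 11.9 and 68.4 ± 14.6 points, limma adjusted p = 0.000316 and 0.00261). Against wild-type livers alone the chromosome 3 call was lost (limma adjusted p = 0.0502). At the chromosome 5 region H3K27ac was at 0% in 4 Myc-on tumours and 4 control livers, and at 100%, 19.6% and 100% in the Myc-off tumours.

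The 3 regions with the highest scores in both of their tumours had no H3K4me3 peak in any library. The same held for 7095 (67.6%) of the 10503 regions, so it was not particular to those 3. It held for 2783 (20.4%) of the regions in all 6 lists. The chromosome 1 region above was one of the leading 3, at percentiles of 86.2 and 88.4. On chromosome 5, 136115749 to 136116832 was bound in tumours 5 and 6 at score percentiles of 88.5 and 92.7, and carried H3K27ac over 0%, 100% and 100% in Myc-off tumours, 0% in 4 Myc-on tumours and 100% in 4 control livers, with no H3K4me3. The surrounding H3K27ac region passed in neither comparison (limma adjusted p = 0.352 between Myc-off and Myc-on tumours and 0.149 between Myc-on tumours and control livers). Chromosome 2, 152625720 to 152627051, was bound in tumours 5 and 6 at percentiles of 93.5 and 88.4 under H3K27ac that covered 100% in all 7 tumours and in 3 of 4 control livers. The RNAPII region around it was covered more in Myc-off than in Myc-on tumours by 64.0 ± 17.2 points (limma adjusted p = 0.0378). The longest region, chromosome 3, 146257804 to 146263596, spanned 5793 bp and came from tumours 2 and 6, at percentiles of 11.1 and 90.7. H3K4me3 covered it to 0%, 92.3% and 89.8% in Myc-off tumours, 0% in 4 Myc-on tumours, and 100%, 98.0%, 92.4% and 92.7% in control livers, and RNAPII was likewise at 0% in 4 Myc-on tumours. The surrounding regions were covered less in Myc-on tumours than in control livers by both (−79.2 ± 11.3 and −87.9 ± 15.1 points, limma adjusted p = 0.000616 and 0.000491).

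Few of the regions had a peak in the Myc lists that did not choose them. A Myc peak lay over 3, 3 and 4 of the 10503 regions in Myc-off tumours 1 to 3 and over 83, 159, 30 and 211 in control livers 1 to 4. The groups did not overlap, at 0.0317% ± 0.0055 (SD, n = 3) and 1.15% ± 0.763 (SD, n = 4), and the difference of −1.12 points gave an exact permutation p of 0.0571. The Myc-off lists held 98, 331 and 239 peaks and the control lists 1002 to 8499, and the part of list length in this difference was not tested. Any control liver had a peak in 314 of the regions (2.99%), between the 1.39% of regions in 1 list and the 5.73% of those in 3. Among the regions bound in all 6 tumours, 5925 (43.4%) had such a peak. The latter share came mainly from control liver 4, which had the longest list. It had a peak in 40.6% of the regions bound in all 6 tumours, against 6.06%, 7.52% and 3.33% in control livers 1 to 3. The region on chromosome 2, 116725520 to 116726026, was bound in all 4 control livers and in tumours 3 and 4, and no mark and no RNAPII peak was found there in any library. All 3 of the Myc-off lists and no control list had a Myc peak on chromosome 3, 89006529 to 89007242, at tumour percentiles of 92.0 and 78.9. H3K4me3 covered it to 96.5% ± 1.42 in Myc-off tumours, 91.3% ± 3.61 in Myc-on tumours and 75.4% ± 8.48 in control livers, and the limma test of the region around it gave no call in any mark.

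H3K27ac regions of the tumours held these regions beside constant sites about as often as H3K27ac regions held constant sites at all. Of 13389 H3K27ac regions present in at least 2 Myc-on tumours, 3343 (25.0%) held at least 1 of the regions, and 945 held several, up to 10. They contained 4715 of the 10503 (44.9%). Of these 4715, 3504 (74.3%) shared their H3K27ac region with a Myc region bound in all 6 tumours. A constant Myc region was in 70.8% of the H3K27ac regions that held 1 of the regions described here, and in 72.3% of all H3K27ac regions.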

How the data were processed

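ChIP-seq peak lists for Myc, H3K4me3, H3K27ac and RNAPII were used (46 lists of 47 samples); the input sample was not analysed here. Reads were processed with BWA 0.6.2 and SAMtools on mm9, per the submitters' processing notes; for the peak caller, its version and its threshold, the sources used here name nothing. The Myc lists hold the authors' score, as deposited, on a scale not stated, with higher meaning stronger. The histone lists were deposited in a gapped-peak layout with a whole-number score, and the RNAPII lists hold positions only. Peaks were called per library, read depth is unknown, and no counting interval is given. No pair of lists of an antibody shared more than 1.02% identical peaks.

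Myc tumour peaks were merged at 1 bp overlap. A mark was counted over a region at 1 bp overlap. Shares were compared by two-sided exact permutation over libraries or by sign flips, and Benjamini-Hochberg adjusted within families of 6. Merged regions of each mark, covered in at least 2 libraries, were fitted with limma 3.58.1 (R 4.3.3; mean-dependent prior variance, 3 groups in 1 fit, no covariate), tested on simulated data first. Both comparisons of a mark share the Myc-on tumours. Standard errors are limma's. Python 3.11.15, numpy 2.4.6, pandas 2.3.3, scipy 1.17.1 and matplotlib 3.10.9 were used.

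The regions, tests and lists were chosen with earlier results of these data known. Named regions, outside chromosomes 18 and Y, were those with the highest lower score percentile, the most changed in coverage within a called region of each mark and direction, the longest, and those bound by Myc in most control livers or Myc-off tumours, ties going to the higher score percentiles. The gene tables at hand were of another build than mm9, so no gene and no sequence is given. Same-numbered libraries of different groups were not pairs: their histone identifiers differed between groups, and correlations of their deviations ran from −0.05 to 0.15.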

Additional observations from a re-analysis of the deposited data

Results flagged for a closer look

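Of 16 groups of at least 4 libraries examined for a value far from the others, 1 stood out, and chance flags about 1 group in 20. In control liver 1, the share with RNAPII was −46.5 percentage points in regions shared by exactly 2 tumours relative to regions bound in all 6, against −49.3 to −49.0 in control livers 2 to 4. Control liver 1 also had the longest RNAPII list of the control livers, with 20931 peaks against 15152 to 17031, and the part of list length in this value was not tested.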

How the results depend on the processing

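The count of regions in exactly 2 lists was 6118 with Myc peaks above the median score and 2988 at equal list length. The share in tumours 5 and 6 was 43.9% and 23.1% under these, and that in tumours 4 and 6 was 49.5% and 5.02%. The share with neither mark in control liver was 41.6% and 40.9%, or 55.7% with peaks up to 200 bp apart merged. Without 1 tumour, the count ran from 7462 to 11935. The share with H3K4me3 in Myc-on tumours minus control livers changed sign with stricter Myc scores (−0.163 points) and with wild-type livers alone (−1.90), and ran from −0.715 to 1.21 without 1 library. That of H3K27ac changed sign at equal list length (−0.119) and with wild-type livers alone (−2.27). The H3K4me3 gap changed sign between Myc-off and Myc-on tumours at equal list length (0.581), and between Myc-on tumours and control livers it passed 0.05 in windows of 500 bp (−0.840) and without Myc-on tumour 4 (−0.498, range −0.498 to −0.152). The RNAPII difference between both large pairs, Myc-on tumours minus control livers, lost its call at equal list length (−3.25), with at least 50% of a region covered (−3.31) and without most single libraries (−4.60 to −2.63). Without 1 library, the other pair differences ran from −4.18 to −3.06 (H3K4me3, Myc-on minus control), 14.0 to 19.6 (H3K27ac, Myc-off minus Myc-on) and 6.60 to 9.01 (RNAPII, likewise), and −10.2 to −8.17 for the H3K27ac call that held. Regions in called mark regions were also counted with a stricter score limit of the mark. For Myc-on tumours against control livers the totals were 44 (H3K4me3, 561 without the limit) and 179 (H3K27ac, 1412 without it). For Myc-off against Myc-on they were 540 (H3K4me3, 1020 without it) and 759 (H3K27ac, 1420 without it). These are totals of separate fits, and the regions common to them were not counted. In a fit over Myc regions widened by 500 bp, the totals for Myc-off against Myc-on were 582 (H3K4me3), 583 (H3K27ac) and 167 (RNAPII, 289 in the fit over mark regions). For Myc-on against control the RNAPII total was 443 (805 in the fit over mark regions), where wild-type livers alone gave 413. Without 1 library the Myc-off against Myc-on counts ran from 611 to 984 for H3K4me3 (lowest without Myc-on tumours 3 and 4 and Myc-off tumours 2 and 3, each at most 676), from 856 (without Myc-on tumour 4) and 881 (without Myc-off tumour 2) to 1670 for H3K27ac, and from 75 to 479 for RNAPII (168 and 171 without Myc-on tumours 1 and 2, 120 without Myc-off tumour 3, 190 without control liver 3). The RNAPII count for Myc-on against control ran from 493 (without control liver 1) to 750. The cause was not tested for any of these. With a replicate block, which the numbers do not warrant, the counts were 507, 1347 and 926 (Myc-on against control) and 684, 1040 and 319 (Myc-off against Myc-on) for H3K4me3, H3K27ac and RNAPII, and the H3K27ac share difference between Myc-off and Myc-on tumours was 18.5 points. The differences from regions in all 6 lists and in 1 list kept their sign and call under the alternatives run, though a stricter Myc score limit moved those from regions in 1 list to 13.0 (H3K4me3), 12.0 (H3K27ac) and 11.0 (RNAPII) points. For the named regions, 231 of the 249 alternative values kept the call and 18 lost it. Depth is unknown, and list length limits every share of regions with a peak.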
